A study of Mus musculus with 30 samples.

Results

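The 9 genes described here mark blood vessels, and they were followed in dishes of cultured mouse telencephalon: the pericyte genes Pdgfrb and Rgs5, and the endothelial genes Kdr, Flt1, Tek, Cdh5, Pecam1, Cldn5 and Esam. They were taken by gene symbol from the annotation of the array, the Affymetrix Mouse Genome 430A 2.0, where 16 of 22690 probe sets and 9 of 12394 genes carried these names. Telencephalon, the embryonic forebrain that gives rise to cortex and basal ganglia, was taken at embryonic day 12.5 and grown without serum. The wild-type dishes came from 1 pool of 4 control embryos, and the knockout dishes from 1 pool of 6 Xbp1 -/- embryos, each spread over 15 dishes. Xbp1 codes for a factor that switches on genes when unfolded protein builds up in the endoplasmic reticulum, and the labels do not say in which part of the gene the allele is altered. Each genotype had 5 dishes without BDNF (basal), 5 with BDNF for 24 h and 5 with BDNF for 48 h, with 1 array per dish. BDNF, a neurotrophin that acts through the TrkB receptor, was given at 100 ng/ml. Basal and 24 h dishes were lysed on day 4 in vitro and 48 h dishes on day 5, so BDNF and a further day in culture cannot be told apart at 48 h. The 5 dishes of a group shared a pool of embryos, so every p-value measures only the spread between dishes of 1 pool, and genotype and pool cannot be told apart.

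Capillaries of the brain are tubes of endothelial cells wrapped by pericytes. Endothelial cells answer to VEGF through the receptors Kdr and Flt1 and to angiopoietins through the receptor Tek, and they adhere to each other through Cdh5, Pecam1, Esam and the tight-junction protein Cldn5. Pericytes are drawn to new vessels by PDGF-B acting on Pdgfrb, and Rgs5, a regulator that dampens G-protein signalling, is among the genes used to recognise them. Pdgfrb is also made by fibroblasts, vascular smooth muscle and meningeal cells.

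Since Rgs5 was the member with the clearest fall in the knockout, the 250 bases before its annotated start are shown as a place where the XBP1 core motif CCACG can be looked for. The window lies at chr1:169655251-169655500 on the plus strand of GRCm38.p6 (RefSeq), and the capitals mark the CCACG match, 53 bases before the start.
Rgs5: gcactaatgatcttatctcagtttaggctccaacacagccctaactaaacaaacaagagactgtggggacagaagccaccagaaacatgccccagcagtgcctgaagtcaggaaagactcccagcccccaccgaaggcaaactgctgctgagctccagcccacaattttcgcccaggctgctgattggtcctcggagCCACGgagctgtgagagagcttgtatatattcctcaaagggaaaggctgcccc
Motifs were looked for in promoter windows of 5 of the 9 genes. Pdgfrb was left out before the search, as was the part of the genome that holds it, so its promoter was not tested. On either strand, CCACG was present in 3 of them (Rgs5, Kdr and Cldn5), against 28.3% of 32851 windows of the same length. The longer motif TGACGTGG was in 0 of the 5 and in 0.563% of all windows, and the ER stress response element ERSE, which ends in CCACG, was in 0 of the 5 and in 0.113%. The ETS-type motif AGGAAG was in 1 of the 5, that of Flt1, and in 29.5% of all windows. These matches describe letters in a window and nothing about binding.

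All levels below are log2 of a signal divided by the median of its array, so 0 is the array's median probe set, and signals under 0.1 of the median were set to that floor, -3.32. Before this scaling the array medians ranged from 81.9 to 138 intensity units. The Gapdh 3'/5' ratio, a measure of RNA integrity, averaged between 2.73 and 2.86 in the basal and 24 h groups and 2.47 and 2.39 at 48 h in wild type and knockout. Xbp1 mRNA was still measured in the knockout, where it was 0.22 ± 0.06 (SE) higher than in wild type without BDNF (adjusted p = 0.00498). This probe set therefore gave no check of the genotype labels.

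The members were mostly faint. Pdgfrb and Rgs5 lay in the upper 60% of genes by mean signal, the 7436 genes that were tested, and the 7 endothelial genes lay under it. Endothelial genes were therefore compared in a second fit of all 22690 probe sets. Pecam1 was at the floor in 28 of 30 dishes, and the brighter of the Cdh5 probe sets in 17 of 30. Of the other junction genes, Cldn5 was at the floor in 6 dishes and Esam in 2. Among 34 other endothelial genes measured, 11 (32.4%) were at the floor in at least 15 dishes, against 13.2% of all genes. Shares of this kind were also found among other pericyte genes (27.8%), smooth muscle genes (28.6%) and platelet genes (2 of 5). Tie1, Erg and Gja5 were at the floor in all 30 dishes, and Vwf in 26. Of 9 neuronal genes measured, none was.

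Pdgfrb, the receptor for PDGF-B, was higher in the knockout dishes at every time. Its brighter probe set, 1436970_a_at, read 0.14, 0.28, 0.26, 0.10 and 0.13 in the wild-type basal dishes and 1.36, 1.16, 1.33, 1.39 and 1.37 in the knockout basal dishes. After 24 h of BDNF it read 0.61, 0.01, 0.19, 0.21 and 0.21 in wild-type dishes and 1.62, 1.27, 1.47, 1.33 and 1.29 in knockout dishes. After 48 h it read 0.14, -0.06, -0.29, 0.15 and -0.38 in wild-type dishes and 0.95, 1.01, 1.26, 1.78 and 1.32 in knockout dishes. Every knockout dish lay above every wild-type dish of the same time. Without BDNF the difference was 1.14 ± 0.13 on the log2 scale (SE, 5 dishes a group), or 2.20-fold (limma, adjusted p = 8.93e-09). It was 1.15 ± 0.13 at 24 h (2.22-fold, adjusted p = 8.14e-09) and 1.35 ± 0.13 at 48 h (2.55-fold, adjusted p = 1.76e-10). Rises of at least this size were seen in 91 tested genes without BDNF (1.22%), in 73 at 24 h (0.982%) and in 66 at 48 h (0.888%). In bulk samples such as these dishes, a change in the number of cells of a type and a change in RNA per cell cannot be told apart.

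The second Pdgfrb probe set, 1417148_at, was at the floor in 13 of 30 dishes, and all 13 were wild type. In wild type only 1 basal dish (-2.71) and 1 dish at 48 h (-3.18) stood above the floor. Knockout dishes read -2.04, -1.80, -1.62, -1.20 and -2.71 without BDNF, then -0.50, -1.85, -1.27, -1.34 and -2.05 at 24 h, and -2.70, -3.09, -0.96, -0.86 and -1.76 at 48 h. Only the lowest knockout basal dish met a wild-type value. The difference was 1.32 ± 0.34 without BDNF (adjusted p = 0.00753 over all probe sets) and 1.42 ± 0.34 at 48 h (adjusted p = 0.00439). At 24 h all 5 wild-type dishes were at the floor, and the signal was at least 3.78-fold higher in the knockout (adjusted p = 1.82e-04). Fitted over only the arrays compared, the 48 h difference was no longer past the threshold (adjusted p = 0.0786).

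Rgs5 went the other way. Probe set 1417466_at, its brightest, read 0.70, 0.65, 0.61, 0.49 and 0.52 in wild-type basal dishes and -0.33, -0.47, -0.72, -0.60 and -0.55 in knockout basal dishes. At 24 h it read 0.91, 0.49, 0.43, 0.80 and 0.74 in wild-type dishes and -0.29, -0.49, -0.18, -0.67 and -0.16 in knockout dishes. At 48 h it read 0.36, 0.54, 0.63, 0.68 and 0.90 in wild-type dishes and -0.37, -0.36, -0.63, -0.27 and -0.62 in knockout dishes. No wild-type dish was as low as any knockout dish, at any of the 3 times. The difference was -1.13 ± 0.12 without BDNF (SE, 0.458-fold, adjusted p = 3.54e-09), -1.03 ± 0.12 at 24 h (0.488-fold, adjusted p = 2.49e-08) and -1.07 ± 0.12 at 48 h (0.476-fold, adjusted p = 9.86e-09). Falls of at least this size were seen in 22 tested genes without BDNF (0.296%), 33 at 24 h (0.444%) and 19 at 48 h (0.256%).

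The 3 fainter Rgs5 probe sets, which share 1 target sequence, had lower means in the knockout at all 3 times, with smaller or less certain differences. For 1420941_at the difference was -0.90 ± 0.26 without BDNF (adjusted p = 0.0192) and -0.95 ± 0.26 at 24 h (adjusted p = 0.0144), both past the threshold, and -0.71 ± 0.26 at 48 h (adjusted p = 0.083), which was not. The basal call was lost without wild-type dish 3 (adjusted p = 0.0584) or knockout dish 2 (0.076), and the 24 h call without knockout dish 5 (0.0556). For 1420940_x_at and 1420942_s_at the differences without BDNF were -0.62 (adjusted p = 0.0787) and -0.39 (adjusted p = 0.537).

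**Figure D1:**
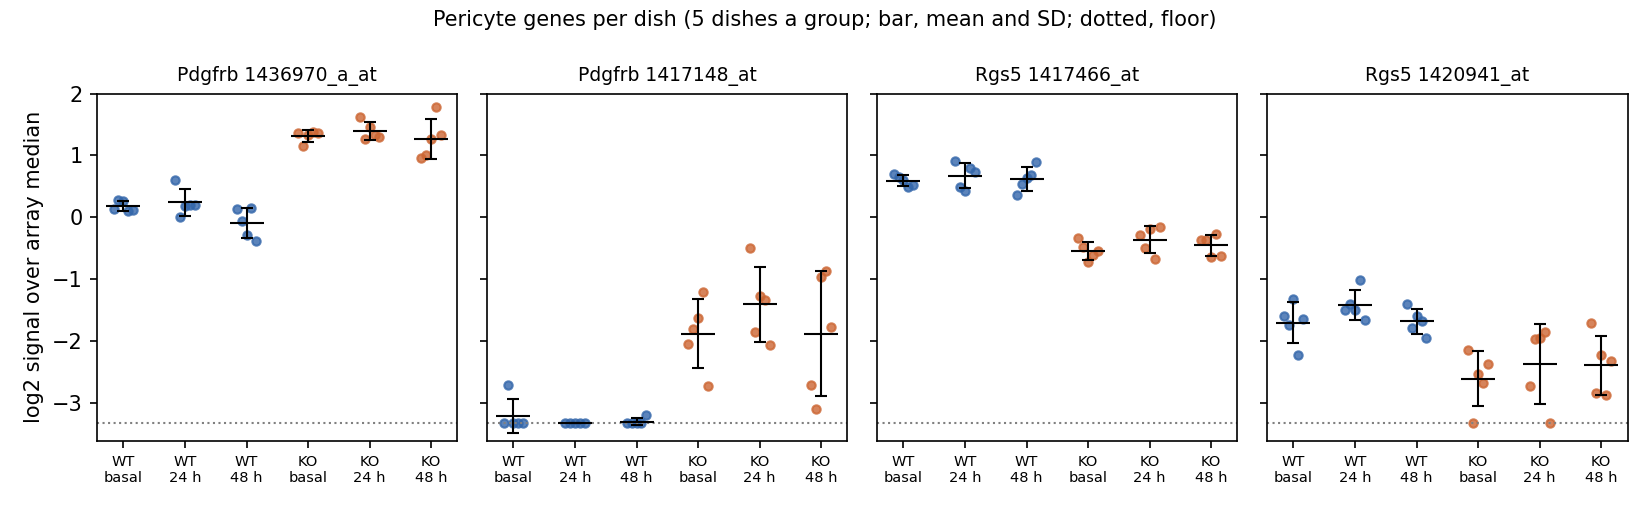
Log2 signal over the array median (vertical axis) of 2 Pdgfrb and 2 Rgs5 probe sets in every dish, with 5 dishes in each of 6 groups; points are dishes, bars the mean and SD, and the dotted line the floor at -3.32. In the brightest probe sets of Pdgfrb and Rgs5 the knockout dishes lie entirely above and entirely below the wild-type dishes of the same time.

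Among the 9 genes, the 2 that passed the filter were both called between genotypes at each time, 1 higher and 1 lower. The filter used the mean over all 30 dishes. Rgs5 averaged 0.59, 0.67 and 0.62 in wild-type groups and -0.53, -0.36 and -0.45 in knockout groups. Ramp2, with a mean of -0.44, was not tested, so Rgs5 passed in part through its wild-type dishes. In the fit of all probe sets, made without the filter, the brightest probe sets of both genes were also called at each time. Of all tested genes, 27.9% were called without BDNF, 26.2% at 24 h and 24.1% at 48 h, so calls between these pools were common. Higher calls made up 9.2%, 8.43% and 9.68%, and lower calls 18.7%, 17.8% and 14.4%. The median tested gene differed by -0.09, -0.09 and -0.07. In the fit of all probe sets, 6 of the 16 were called without BDNF (13.6% of all), 4 at 24 h (12.9%) and 5 at 48 h (11.6%).

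Tek, the angiopoietin receptor, was among these. Its probe set 1418788_at read -2.63, -2.26, -2.21, -2.86 and -2.66 in wild-type basal dishes and -1.50, -1.23, -1.02, -1.75 and -1.35 in knockout basal dishes, without overlap. Both groups were well under the median probe set. Without BDNF the knockout was higher by 1.16 ± 0.20 (SE, 2.23-fold, adjusted p = 1.60e-04 over all probe sets). At 24 h the readings were -2.27, -2.71, -2.00, -2.18 and -2.25 in wild-type dishes and -1.79, -2.19, -1.26, -1.76 and -1.67 in knockout dishes. The groups overlapped and the difference of 0.54 ± 0.20 did not pass (adjusted p = 0.0787). It passed with quantile normalization (adjusted p = 0.0412), with a term for 48 h dishes 3 to 5 (0.0472) and without knockout dish 2 (0.0392). At 48 h they were -2.75, -2.56, -3.32, -3.30 and -2.49 against -1.92, -1.70, -2.24, -2.24 and -2.66, a difference of 0.73 ± 0.20 (adjusted p = 0.0154). That call was lost without wild-type dish 3 (adjusted p = 0.0582), wild-type dish 4 (0.061) or knockout dish 2 (0.0606), and with only the arrays compared (0.0924).

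Kdr, the main signalling receptor for VEGF, was the brightest endothelial member and the only one above the floor in every dish. Its probe set 1449379_at read -0.49, -0.30, -0.15, -0.67 and -0.62 in wild-type basal dishes and -0.49, -0.79, -1.18, -0.96 and -1.23 in knockout basal dishes. At 24 h it read -0.47, -0.28, -0.88, -0.71 and -0.72 in wild-type dishes and -0.54, -0.14, -1.12, -0.95 and -0.80 in knockout dishes. At 48 h it read -0.60, -0.72, -0.97, -1.0 and -0.72 in wild-type dishes and -0.15, -0.40, -0.22, -0.37 and 0.02 in knockout dishes. The groups overlapped without BDNF and at 24 h, and at 48 h every knockout dish was above every wild-type dish. The genotype difference was -0.49 ± 0.16 without BDNF (adjusted p = 0.0492), -0.10 ± 0.16 at 24 h (adjusted p = 0.797) and 0.58 ± 0.16 at 48 h (1.49-fold, adjusted p = 0.0186). The basal call was lost under 7 of 10 other settings and on leaving out any of 7 of the 10 dishes, with adjusted p up to 0.283 and 0.135. Those dishes were wild-type dishes 1, 2 and 3 and knockout dishes 2, 3, 4 and 5. The 48 h call was lost without wild-type dish 3 (adjusted p = 0.0521), wild-type dish 4 (0.0585) or knockout dish 5 (0.0562).

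Flt1, which binds VEGF and acts largely as its trap, gave no genotype call. Its brightest probe set, 1451756_at, had group means between -1.89 and -1.15, with single dishes from -3.32 to -0.46. Its differences were 0.43 ± 0.45, 0.00 ± 0.45 and -0.05 ± 0.45 at the 3 times (adjusted p of 0.637, 1.0 and 1.0). The spread between dishes was wide, and the 95% interval without BDNF ran from -0.50 to 1.35. The other Flt1 probe sets were at the floor in 13 and 14 of 30 dishes.

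The junction genes gave no genotype call either. Cldn5, the claudin of brain endothelium, differed by -0.04 ± 0.41, -0.63 ± 0.41 and -0.16 ± 0.41, with dishes from the floor to -1.30. Esam, an adhesion molecule of endothelial cells and platelets, differed by -0.32 ± 0.43, -0.19 ± 0.43 and -0.08 ± 0.43, with dishes from the floor to -0.84. For Cdh5, or VE-cadherin, the difference without BDNF was 0.53 ± 0.23 (adjusted p = 0.145), where knockout dishes read -3.32, -2.13, -2.39, -2.75 and -2.14 and wild-type dishes -3.32, -2.72, -3.32, -3.04 and -3.00. Its wild-type and knockout means were -3.14 and -3.04 at 24 h, and -3.24 and -3.13 at 48 h. The second Cdh5 probe set, at the floor in 16 of 30 dishes, averaged -2.91 in wild type and -2.82 in knockout without BDNF. Pecam1, or CD31, was above the floor only in wild-type basal dish 1 (-2.95) and wild-type 48 h dish 1 (-1.96), and in no knockout dish. Where dishes of both genotypes were at the floor, as for Pecam1, the arrays could not measure a difference or set a bound on it.

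**Figure D2:**
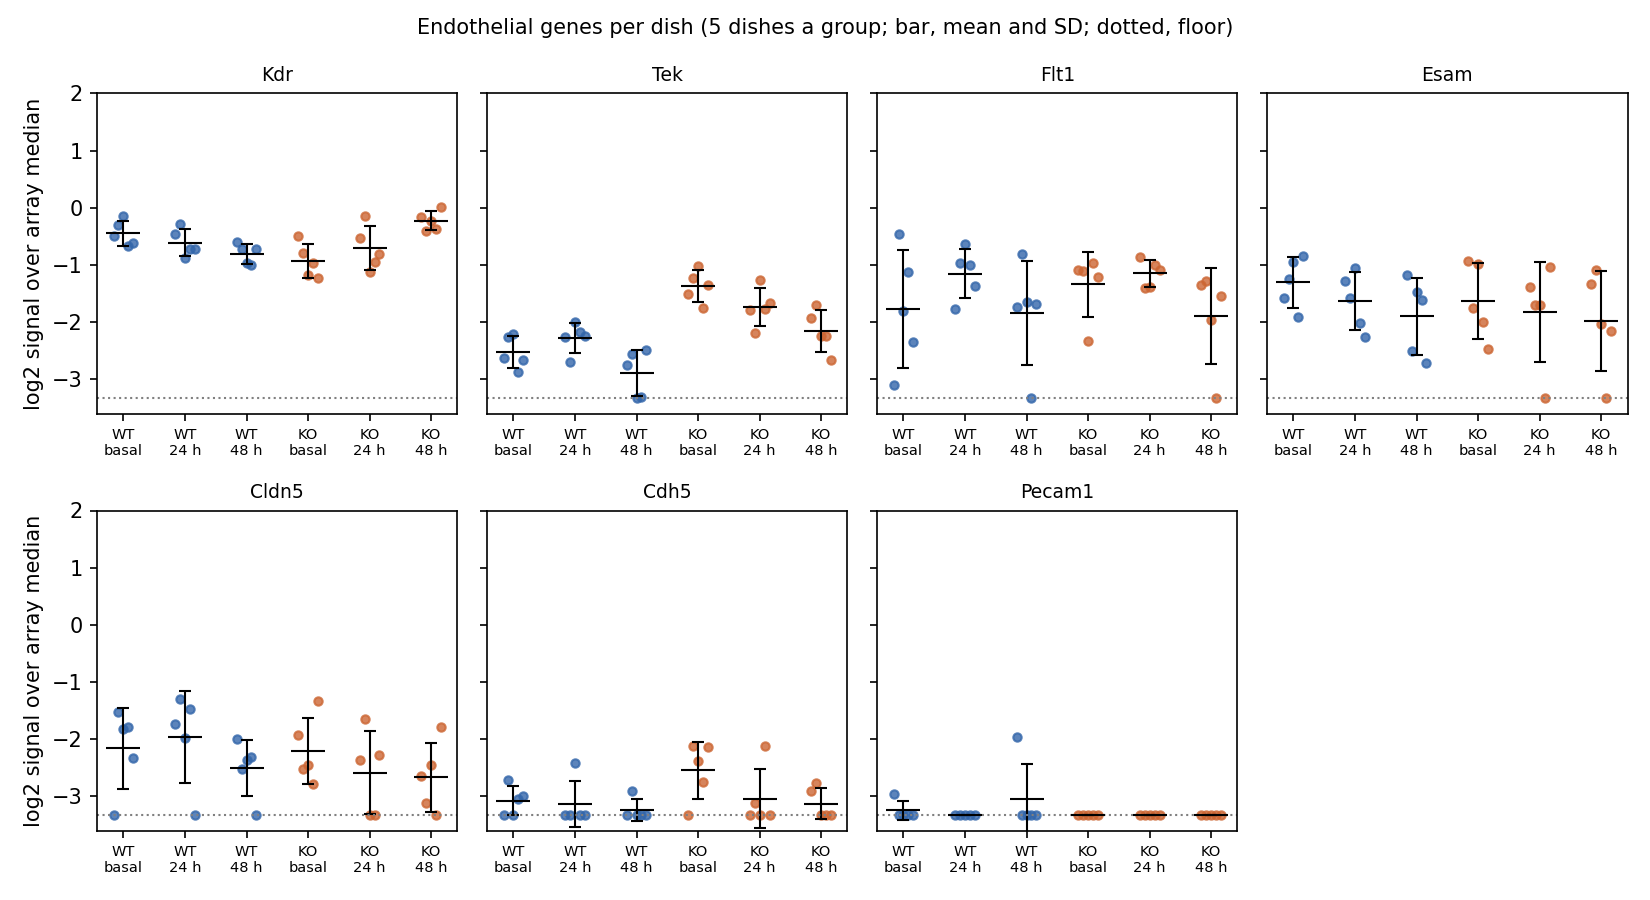
Log2 signal over the array median (vertical axis) of the 7 endothelial genes in every dish, by genotype and time; points are dishes, bars the mean and SD of 5 dishes, and the dotted line the floor. Kdr stays above the floor throughout, Tek is higher in the knockout basal dishes, and Cdh5 and Pecam1 are the faintest, with Pecam1 at -3.32 in 28 of 30 dishes and Cdh5 in 17.

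**Figure D3:**
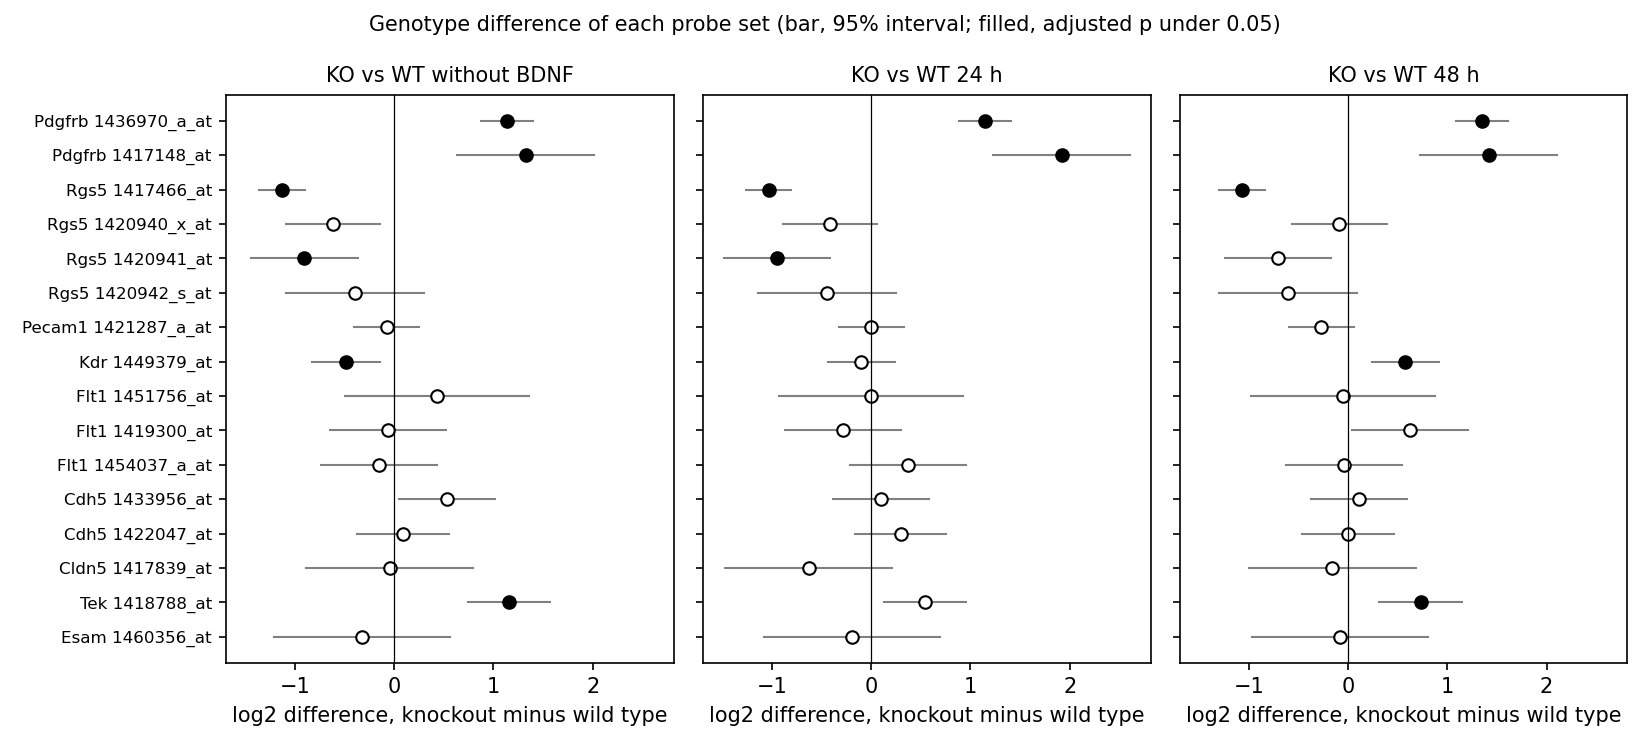
Log2 difference, knockout minus wild type (horizontal axis), of each of the 16 probe sets without BDNF, at 24 h and at 48 h, with 95% intervals; filled points passed an adjusted p of 0.05 over all probe sets. Both Pdgfrb probe sets lie above 0 and the brightest Rgs5 probe set lies below 0 at each time.

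Few members were called with BDNF. Within the tested genes, neither Pdgfrb nor Rgs5 was called at 24 h or 48 h against basal, or at 48 h against 24 h, in either genotype. Of all tested genes, 14.4% were called in wild-type dishes at 24 h and 36.2% at 48 h, against 11.5% and 28.9% in the knockout. Between 24 h and 48 h the shares were 13.9% in wild type and 9.84% in the knockout. At an unadjusted p under 0.05 in limma, 1 of the 2 genes passed in wild type at 48 h against basal and against 24 h, and 0 in the other 4. That gene was Pdgfrb, with -0.27 ± 0.13 against basal (adjusted p = 0.0952) and -0.33 ± 0.13 against 24 h (adjusted p = 0.0729). The 48 h against 24 h difference passed on leaving out wild-type 24 h dish 2 or 48 h dish 1. Rgs5 moved by 0.08, 0.03, 0.18 and 0.08 at 24 h and 48 h in wild type and knockout, with adjusted p from 0.375 to 0.881.

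Kdr in the knockout was the clearest change over time. It rose by 0.71 ± 0.16 between basal and 48 h (SE, 1.63-fold, adjusted p = 0.0041 over all probe sets), without overlap of the dishes. In wild type the same comparison gave -0.36 ± 0.16 (adjusted p = 0.132). All 5 wild-type dishes at 48 h lay below the wild-type basal mean, and all 5 knockout dishes above the knockout basal mean. The difference between these responses was 1.06 ± 0.23, which did not pass over all probe sets (adjusted p = 0.0849). On leaving out single dishes it did not pass in 19 of 20 fits (adjusted p up to 0.195). The exception was the fit without knockout basal dish 1 (0.0346). Nor did it pass under 9 of 10 other settings (adjusted p up to 0.390). From 24 h to 48 h Kdr in the knockout moved by 0.48 (adjusted p = 0.0994), which passed with signals as deposited (0.0231) and without knockout 24 h dish 2 (0.0326). No member was called in the genotype difference of the response at 24 h or 48 h, where 0.0941% and 0.134% of tested genes and 0.0309% and 0.0705% of all probe sets were. At an unadjusted p under 0.05 there was 1 member probe set in each.

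Tek moved the opposite way to Kdr in the knockout. Its signal fell by 0.78 on the log2 scale between basal and 48 h (SE 0.20, adjusted p = 0.00889), with overlapping dishes. The call was lost with signals as deposited (adjusted p = 0.0771), with a lower floor (0.0605), once the Gapdh ratio entered as a covariate (0.144) and with a term for 48 h dishes 3 to 5 (0.189). Of the 16 probe sets, these 2 were called in the knockout at 48 h, where 14% of all probe sets were. In wild type at 48 h, where 20.7% were, 1 was called: the faint Rgs5 probe set 1420940_x_at, at -0.68 ± 0.23 (adjusted p = 0.038). It was lost on leaving out 8 of 10 dishes and under 5 of 10 settings, and the brightest Rgs5 probe set gave 0.03 ± 0.11. At 24 h against basal no member probe set was called in wild type (6.76% of all were) or in the knockout (4.75%), and none at 48 h against 24 h (7.47% and 3.43%). Unadjusted, 0, 2, 3 and 3 of the 16 passed in these 4 comparisons.

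Other genes of vessel wall and mesenchyme were read beside the members. Their lists were written from general knowledge, but with earlier results of these data known, so their counts are descriptions. Of all tested genes, 9.2% were called higher and 18.7% lower in the knockout without BDNF, and 9.68% and 14.4% at 48 h. Of 7 other pericyte genes tested, 6 were higher and 0 lower in the knockout without BDNF, with a list median of 0.85 against -0.09 for all tested genes. They included Ifitm1 (1.43), Vtn, which encodes vitronectin (1.41), the transcription factor Foxc1 (0.89) and Cd248, or endosialin (0.85). At 48 h the count was again 6 higher and 0 lower, with a median of 1.25. These medians hold only for the brighter genes: over all 18 pericyte genes measured, in a fit without the filter, 7 were higher and 0 lower at both times, with medians of 0.03 and 0.29. In that fit 13.6% and 11.6% of all probe sets were called at these times, in either direction. Rgs5, at -1.13, thus differed in direction from the 6 called genes. Anpep, Abcc9, Kcnj8, Art3 and Higd1b, 5 of the 18 measured, were at the floor in at least 15 dishes and were not tested. Among smooth muscle genes 4 of 5 were higher and 0 lower, led by Tpm2 (1.16), Tagln (1.12) and Myl9 (1.05), which encode contractile proteins, and with Acta2 at 0.48.

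Fibroblast and meningeal genes were higher in the same dishes. Of 10 tested, 9 were higher and 1 lower without BDNF, with a median of 0.84, and Fmod (2.23), Lum (1.99) and Dcn (1.41), 3 matrix proteoglycans, led them. The 1 lower gene was Postn, at -0.60. Of all tested genes, 9.2% were called higher and 18.7% lower. Summed over the 11 measured genes of this list, the signal was 119 to 143 times the array median in wild-type basal dishes and 225 to 275 times in knockout basal dishes. At 24 h it was 120.5 to 124 against 202 to 225, and at 48 h 98.9 to 120.3 against 197 to 227. None of the 11 was at the floor in 15 or more dishes. The 7 smooth muscle genes summed to 63.0 to 67.2 and 87.1 to 111 without BDNF, with Myh11 and Cnn1 at the floor in 21 and 15 of 30 dishes. The part of these cell types in the Pdgfrb result was not tested.

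Of 9 other endothelial genes tested, 4 were higher and 0 lower without BDNF, with a median of 0.10: the transcription factor Tal1 (1.95), Tm4sf1 (1.26), Ets1 (0.71) and the caveolin Cav1 (0.35). At 48 h 5 were higher and 2 lower. The shares of all tested genes were 9.2% higher and 18.7% lower without BDNF, and 9.68% and 14.4% at 48 h. Among all 34 measured, in a fit without the filter, 4 were higher and 1 lower without BDNF, with a median of -0.01. In that fit 13.6% of all probe sets were called, in either direction. Blood-brain barrier genes gave 3 higher and 0 lower of 9 without BDNF, with Itm2a at 1.18, and 4 higher and 3 lower of all 19 measured in the fit without the filter. Itm2a had a mean level of 5.32, and which cells gave this signal was not tested. Angiogenic ligands gave 2 higher and 2 lower of 7, with Cxcl12 at 0.72, Angpt2, a ligand of Tek, at 0.66, Efnb2 at -0.59 and Sema3a at -0.36. Co-receptors and partners gave 4 higher and 1 lower of 10, with the TGF-beta receptor Tgfbr2 at 1.04 and the integrin Itgav at 0.65.

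The remaining lists describe other cells in the dishes. Of all tested genes, 9.2% were called higher and 18.7% lower without BDNF, and the counts below are read beside these shares. Without BDNF, microglial and myeloid genes gave 1 higher and 0 lower of 5, erythroid genes 0 and 0 of 3 (1 at an unadjusted p under 0.05 in limma), platelet genes 0 higher and 1 lower of 3, neuronal genes 0 higher and 2 lower of 8, and neural progenitor genes 2 higher and 4 lower of 9.

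**Figure D4:**
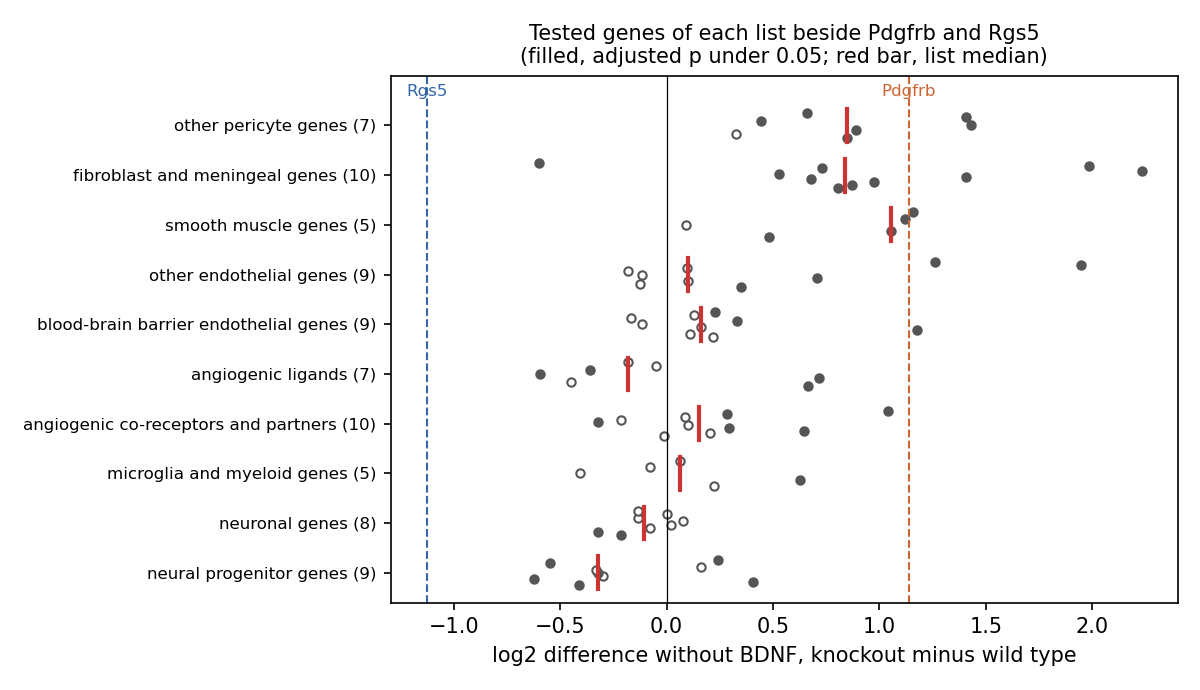
Log2 difference without BDNF, knockout minus wild type (horizontal axis), of each tested gene of 10 lists, with the number tested in brackets; filled points passed an adjusted p of 0.05, red bars are list medians, and dashed lines mark Pdgfrb and Rgs5. The medians of tested pericyte, fibroblast and smooth muscle genes are 0.85, 0.84 and 1.05, beside Pdgfrb at 1.14 and Rgs5 at -1.13; over all measured genes they are 0.03, 0.80 and 1.05.

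With BDNF for 48 h in wild type, the calls in the endothelial, pericyte and smooth muscle lists were lower calls but for 1. Some lists of other genes leaned the same way. Fibroblast and meningeal genes gave 1 higher and 5 lower of 10, and neural progenitor genes 0 and 4 of 9. Co-receptors and partners gave 0 and 4 of 10, and erythroid genes 0 and 3 of 3. Neuronal genes gave 4 higher and 2 lower of 8. Other endothelial genes gave 1 higher and 5 lower of 9 (Ldb2 -0.95, Cav1 -0.75, Eng -0.53), other pericyte genes 0 and 4 of 7 (Cd248 -0.84, Ebf1 -0.77), and smooth muscle genes 0 and 3 of 5 (Myl9 -0.80). Blood-brain barrier genes, several of which encode transporters, gave 4 higher and 0 lower of 9 (Slc16a1 0.73, Slc7a5 0.57, Tfrc 0.40). These 3 genes had mean levels of 1.89, 2.26 and 5.16, whereas Kdr, the brightest endothelial member, averaged -0.62. Which cells gave their signals was not tested. Of all tested genes, 20.5% were called higher and 15.7% lower. Over all 18 pericyte genes measured, in the fit without the filter, 0 were higher and 4 lower, where 20.7% of all probe sets were called. In the knockout the counts of the endothelial, pericyte and smooth muscle lists were 0 and 1 of 9, 0 and 1 of 7, and 0 and 3 of 5. Blood-brain barrier genes gave 3 and 0 of 9, against 19.4% higher and 9.47% lower of all. No listed gene was called in the genotype difference of the response, so the counts in wild type and knockout were not shown to differ.

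The genes whose levels followed Pdgfrb most closely over the 30 dishes were Tnmd (r = 0.96), Col3a1 (r = 0.96) and Synpo (r = 0.96), and within groups the correlations were 0.54, 0.46 and 0.63. For Rgs5 they were Nf2 (r = 0.95), Eif2s3y (r = 0.94) and Folr1 (r = 0.93), with 0.26, -0.43 and 0.32 within groups. The 30 dishes come from both pools, so these values include the difference between the pools. Eif2s3y is on the Y chromosome and differed by -6.04 on the log2 scale, knockout minus wild type, without BDNF (adjusted p = 5.90e-25), so the pools differed in Y-linked RNA as well as in genotype.

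Within groups, no pair of members was correlated past the threshold. Of 36 pairs of members, 0 passed an adjusted p of 0.05 and 4 had an unadjusted permutation p under 0.05 for Pearson's r. The strongest was Rgs5 with Cdh5, at r = -0.47 (permutation p = 0.0218, adjusted 0.421) and rho = -0.44 (permutation p = 0.0188, adjusted 0.476), both over 30 dishes with group means removed. Without the 2 dishes farthest from the Rgs5 median, r was -0.39.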

How the data were processed

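Total RNA of 30 dishes was labelled with biotin and hybridised, 1 array per dish. The authors deposited intensity values computed with MAS5, per the submitters' processing notes, on a linear scale that had not been divided by the array median. Its version is not given in the sources used here. Here each array was divided by its median, floored at 0.1 and converted to log2, whereas the deposited values were not in log2. Of the probe sets, 20393 had 1 gene symbol, 691 several and 1606 none, and none was named from several. The brightest probe set stood for each gene, and 7436 of 12394 genes were tested.

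A model of 6 group means was fitted to 30 arrays with limma 3.58.1 in R 4.3.3 (empirical Bayes with an intensity trend), giving 11 two-sided comparisons adjusted by Benjamini-Hochberg at 0.05. A second fit held all 22690 probe sets. "Higher", "rose" and "fell" in counts mean past that threshold. The first fit was tested on simulated data of the 7436 tested genes, with no floor and with changes only in the knockout basal dishes. The second fit, with values at the floor, was not simulated. Arrays give no molecule counts, so 5 dishes a group limit the precision. Text names all 9 genes, up to 4 called genes of each of 12 further lists, and the 3 genes most correlated with each tested member, and Postn and the genes at the floor were chosen after their values were seen. Gene positions and the promoter window come from RefSeq (GRCm38.p6). Members and lists were chosen with earlier results of these data known.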

Additional observations from a re-analysis of the deposited data

Results flagged for a closer look

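Of 50 member and group combinations of 5 dishes, 7 held a dish far from the other 4, where about 1 in 20 is flagged by chance. In 4 of the 7 the other dishes were all at the floor. Pdgfrb read 1.16 in knockout basal dish 2, below the 1.33 to 1.39 of the others. Flt1 read -2.33 in knockout basal dish 3, below the others at -1.21 to -0.97. Pecam1 read -2.95 in wild-type basal dish 1 and -1.96 in wild-type 48 h dish 1, with the others at -3.32. Cdh5 read -2.42 in wild-type 24 h dish 3 and -2.90 in wild-type 48 h dish 2, with the others at -3.32. It read -2.12 in knockout 24 h dish 4, with the others at -3.32 to -3.12.

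Kdr was picked out because its wild-type dishes at 48 h all lay below the basal mean and its knockout dishes all above. The difference of the responses, 1.06, was tested over all probe sets and did not pass (limma, adjusted p = 0.0849). With single dishes left out it failed to pass in 19 of 20 fits, the exception being without knockout basal dish 1 (0.0346).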

How the results depend on the processing

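The genotype calls of Pdgfrb and Rgs5 kept direction and threshold under every setting in which they were tested, with Pdgfrb between 1.07 and 1.54 and Rgs5 between -1.13 and -0.87. Leaving out single dishes gave 2 of 2 genes each time. The filter decided which members were tested: with no filter 4 members were called without BDNF and 4 at 48 h between genotypes, and 2 at 48 h against basal in the knockout. In the fit of all probe sets, also without the filter, 13.6%, 11.6% and 14% of probe sets were called in these comparisons. With the upper 40% of genes 0 were called at each time, because no member was left to test. With the mean of probe sets Kdr took the place of Rgs5 among tested genes, which gave 1 call at 24 h between genotypes and 1 (Kdr) in the knockout at 48 h. In wild type at 48 h against basal, 75th percentile scaling gave 1 lower call (Pdgfrb) and deposited signals 1 higher call (Rgs5), where the median tested gene shifted by 0.34 in place of 0.02. At 48 h against 24 h, 75th percentile scaling gave 1 call, and leaving out dishes gave 0 to 1.

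Replicate numbers did not pair the dishes, since same-numbered dishes correlated at a median of -0.00 to 0.13. With the replicate block the counts stayed at 2, 2 and 2 between genotypes and 0 elsewhere. The Kdr response difference of 1.06 passed with this block (adjusted p = 0.0367) and without knockout basal dish 1 (0.0346). It did not pass under 9 of 10 settings (adjusted p up to 0.390) or in 19 of 20 fits with 1 dish left out (up to 0.195). Over 99 changes of members, 12 were called and none of these turned sign, while 34 of 87 uncalled ones did. The cause of these shifts was not tested. Signals near the floor limit what can be seen of Pecam1 and Cdh5.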
